A study of Mus with 16 samples.

Results

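Galanin and 8 other neuropeptide genes were followed in the forebrains of mice that lack *Kdm5c*, the X-linked gene of a histone H3 lysine demethylase. The 9 genes were *Gal* (galanin, ENSMUSG00000024907), *Npy* (neuropeptide Y, ENSMUSG00000029819), *Sst* (somatostatin, ENSMUSG00000004366), *Vip* (vasoactive intestinal peptide, ENSMUSG00000019772), *Cck* (cholecystokinin, ENSMUSG00000032532), *Tac1* (the precursor of substance P, ENSMUSG00000061762), *Penk* (proenkephalin, ENSMUSG00000045573), *Crh* (corticotropin-releasing hormone, ENSMUSG00000049796), and *Adcyap1* (the precursor of PACAP, ENSMUSG00000024256). They are 9 of 54219 genes in the count table, and all 9 were among the 17866 genes tested. *Gal* was chosen by its higher expression in *Kdm5c*-KO males of these same animals, and the other 8 by family with results of these data known. In males the values, and which genes passed the threshold, are therefore a description, given with no p-value and read as no evidence of a direction.

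The samples were forebrains, dissected as cortex with hippocampus, of 16 mice at postnatal day 6 (P6). The groups were 4 WT males, 4 *Kdm5c*-KO males (hemizygous, with no intact copy), 4 WT females, and 4 *Kdm5c*-HET females (heterozygous, with 1 intact copy). The *Kdm5c*-KO allele carries a Cre-mediated deletion of exons and was kept on C57BL/6J mixed with another inbred strain. The mice came from several litters, and each animal was 1 replicate. Each label gives the animal a number and a letter, D or E, which the sources used here do not explain. The letters D and E were held by 3 and 1 of the WT males, 2 and 2 of the *Kdm5c*-KO males, 2 and 2 of the WT females, and 1 and 3 of the *Kdm5c*-HET females. The targeted gene itself was not analysed here, because its identifier is not paired with a symbol in the sources used.

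Neuropeptides are cut from larger precursor proteins, stored in dense core vesicles, and released to act mostly on G protein-coupled receptors, often slowly and at a distance. In the cortex and hippocampus, somatostatin, neuropeptide Y, and VIP are made mainly by GABAergic interneurons and are used to tell interneuron classes apart. Cholecystokinin is made by both interneurons and pyramidal cells, and PACAP mostly by excitatory neurons. Enkephalin and substance P are abundant in the neighbouring striatum, and galanin in the hypothalamus and brainstem. The first postnatal weeks are a time when forebrain interneurons settle and mature. In whole tissue, fewer cells of a type and less RNA per cell cannot be told apart.

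Libraries held 21513783 to 30063352 counts each. Expression is given as CPM, the share of a library's counts scaled to a common size, after TMM normalization, and changes as Log2FC, the log2 fold change fitted by edgeR. Of the cortical and hippocampal markers, *Zbtb20* ranged from 111 to 181 CPM and *Emx1* from 27.4 to 41.0 CPM. None of 12 striatal markers had an identifier. *Ttr*, a defining gene of the choroid plexus, was above 50 CPM in 6 animals, namely WT males 2D and 5D (201 and 202 CPM), WT females 1D and 3D (181 and 191 CPM), and *Kdm5c*-HET females 8E and 9E (84.5 and 57.7 CPM), and between 0.277 and 5.603 CPM in the other 10. *Aqp1* was the only other choroid plexus marker of 9 with an identifier. It ranged from 0.323 to 0.637 CPM in *Kdm5c*-KO males and from 0.701 to 3.60 CPM in the other 3 groups. In both WT groups *Aqp1* was higher in the animals above 50 CPM of *Ttr*. In *Kdm5c*-HET females it did not follow *Ttr*, at 2.64 and 0.924 CPM in 9D and 6E and 2.06 and 1.02 CPM in 8E and 9E. The fits were repeated without these 6 animals, which leaves all 4 *Kdm5c*-KO males but only 2 animals in each other group, and values that moved are given below. Both WT females left (4E and 5E) carry the letter E, while the WT males (7D and 1E) and *Kdm5c*-HET females (9D and 6E) left hold both letters. These fits therefore also change the balance of the letters between the groups. The comparison of the label letters was not repeated without them.

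**Figure D1:**
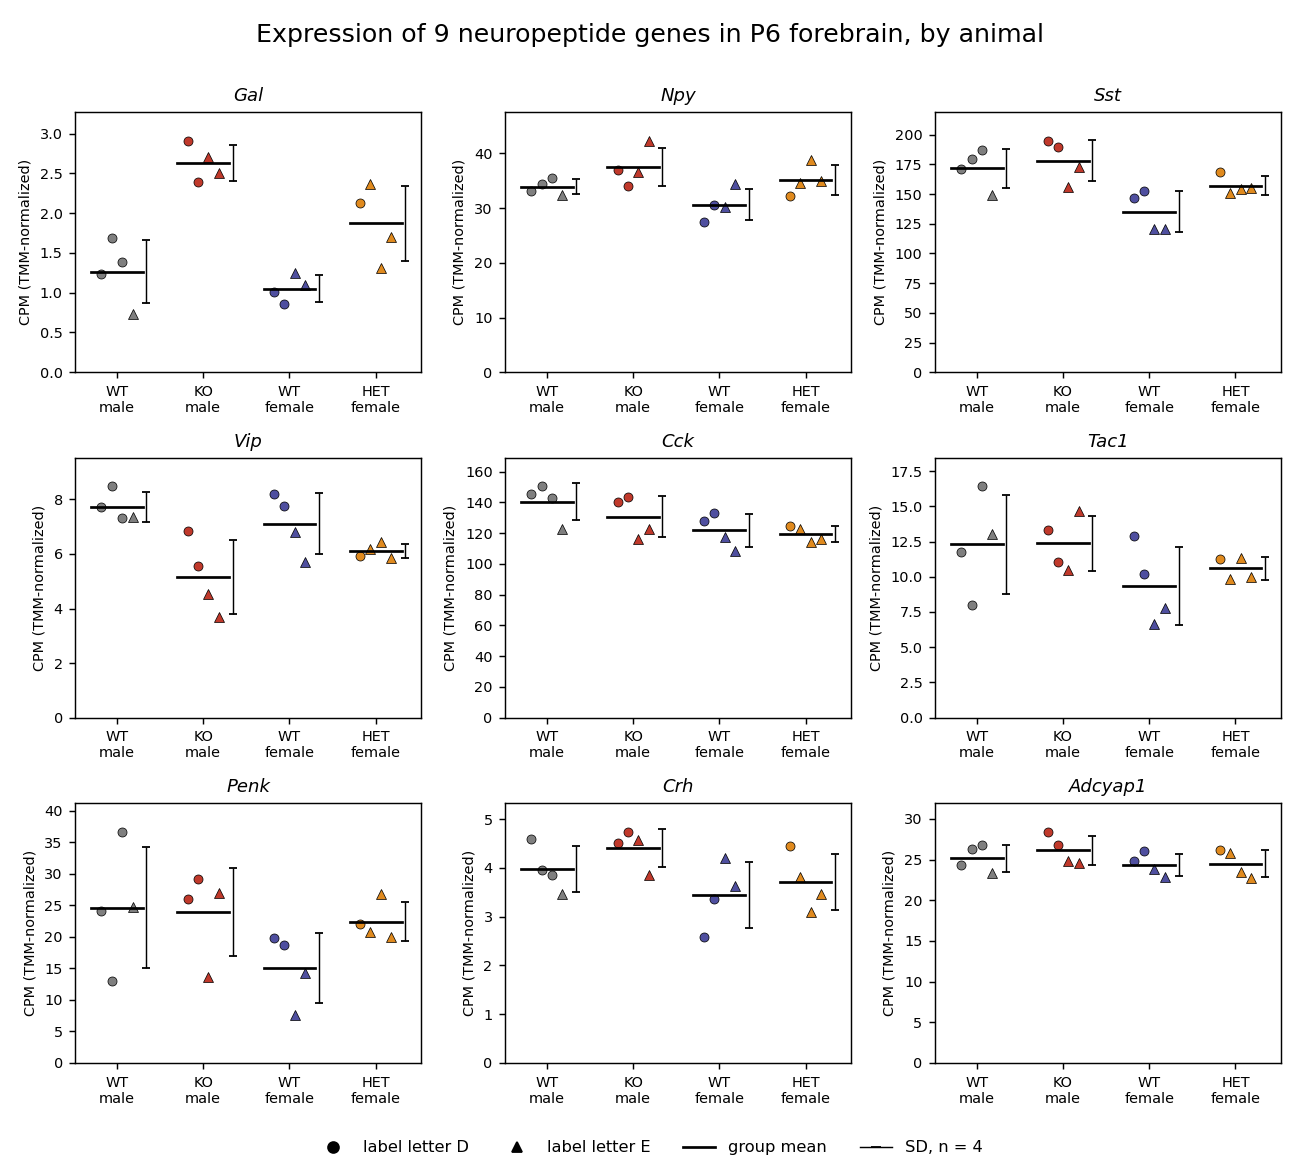
Expression of the 9 neuropeptide genes in CPM (y axis, from 0), 1 panel per gene and 1 point per animal, with 4 animals in each of the 4 groups on the x axis. Circles and triangles mark the label letters D and E, horizontal lines the group means, and bars the SD. *Gal* sits at 2.39 to 2.91 CPM in *Kdm5c*-KO males, above the other groups, and *Vip* has its lowest mean there.

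*Gal* encodes galanin, a peptide whose receptors are mostly inhibitory and which is studied in feeding, memory, and mood. The gene lies on chromosome 19 at 3409915 to 3414544 (RefSeq annotation of GRCm38.p6, the assembly named mm10 in the deposited processing notes). *Gal* measured 1.23, 1.69, 1.39, and 0.738 CPM in WT males (2D, 5D, 7D, and 1E) and 2.91, 2.39, 2.71, and 2.505 CPM in *Kdm5c*-KO males (4D, 6D, 2E, and 3E). Every *Kdm5c*-KO male was above every WT male. The means were 1.26 ± 0.397 and 2.63 ± 0.228 CPM (SD, n = 4), a Log2FC of 1.04 (SE 0.230, 95% interval 0.56 to 1.52), or 2.05-fold.

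*Gal* RNA was scarce. WT male libraries held 16 to 49 of its counts, and *Kdm5c*-KO libraries held 60 to 71. The lowest library, WT male 1E with 16 counts, has a 95% Poisson interval of 9.15 to 26.0 counts, which covers counting error only. With single animals left out, the male Log2FC of *Gal* ran from 0.86 to 1.22. Without the 6 animals above 50 CPM of *Ttr* it was 1.30.

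In females, whose animals are not those of the male contrast, *Gal* measured 1.01, 0.856, 1.25, and 1.095 CPM in WT animals (1D, 3D, 4E, and 5E) and 2.12, 2.37, 1.31, and 1.70 CPM in *Kdm5c*-HET animals (9D, 6E, 8E, and 9E). All 4 *Kdm5c*-HET females were above all 4 WT females, although the lowest *Kdm5c*-HET animal, 8E, exceeded the highest WT animal, 4E, by little. The means were 1.05 ± 0.165 and 1.87 ± 0.470 CPM (SD, n = 4). The Log2FC was 0.84 (SE 0.240, 95% interval 0.34 to 1.34), or 1.79-fold, with an unadjusted p of 0.00234 and a q of 0.257 over all genes tested (edgeR quasi-likelihood test). The female difference thus did not pass the threshold of q = 0.1, and leaving out single animals moved its q between 0.158 and 0.667.

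The male and the female response of *Gal* differed by a Log2FC of 0.20 (SE 0.334, 95% interval -0.50 to 0.90, q = 0.95, edgeR interaction term). This difference contains the male response on which *Gal* was selected. A q of this size does not show that the sexes respond alike, and the interval allows a male response from 0.708 to 1.86 times the female one.

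*Vip* encodes a peptide of interneurons that mainly contact other interneurons. It was the 1 gene of the 9 with lower expression in every *Kdm5c*-KO male than in every WT male. *Vip* measured 7.74, 8.48, 7.31, and 7.34 CPM in WT males and 6.84, 5.58, 4.53, and 3.70 CPM in *Kdm5c*-KO males. The Log2FC was -0.59 (SE 0.150, 95% interval -0.90 to -0.27). Both *Kdm5c*-KO males with the letter E were below both with the letter D. With the letter as a covariate the Log2FC was -0.53.

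*Vip* in females measured 8.18, 7.77, 6.79, and 5.70 CPM in WT and 5.94, 6.19, 6.42, and 5.85 CPM in *Kdm5c*-HET animals. These groups overlapped, with WT female 5E the lowest of the 8. The Log2FC was -0.23 (SE 0.148, 95% interval -0.54 to 0.08, q = 0.933, edgeR). The responses of the sexes differed by -0.36 (95% interval -0.80 to 0.08, q = 0.81).

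In males, *Gal* was thus the 1 gene of 9 called higher at q under 0.1, where 3.55% of all tested genes were, and *Vip* the 1 gene called lower, where 1.69% were. The same 2 genes were the only ones whose 4 *Kdm5c*-KO males did not overlap the 4 WT males, against 5.04% of all genes in the higher and 3.87% in the lower direction. As this contrast chose *Gal*, nothing is read from these counts. With the letter as a covariate *Gal* and *Vip* were again the members called, where 8.22% of all genes were. *Vip* lost its call in the absence of animal 5D (WT), 2E, or 3E (both *Kdm5c*-KO), in a fit of males alone (Log2FC -0.58), and without the 6 animals high in *Ttr* (Log2FC -0.51). With single animals left out, its Log2FC ran from -0.75 to -0.45.

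The other 7 genes overlapped between WT and *Kdm5c*-KO males. *Sst* measured 195, 189, 156, and 173 CPM in *Kdm5c*-KO males, where WT males ranged from 149 to 187 CPM. *Crh* measured 4.60, 3.96, 3.85, and 3.46 CPM in WT and 4.50, 4.74, 4.57, and 3.85 CPM in *Kdm5c*-KO males. In both genes the 2 groups overlapped. *Npy* had a Log2FC of 0.15 (SE 0.0744), *Crh* of 0.15 (SE 0.154), *Sst* of 0.05 (SE 0.0822), and *Adcyap1* of 0.05 (SE 0.0686). *Tac1* stood at 0.02 (SE 0.189), *Penk* at -0.03 (SE 0.270), and *Cck* at -0.11 (SE 0.0731). *Penk* stood at -0.36, *Tac1* at -0.25, *Crh* at 0.27, and *Cck* at -0.03 without the 6 animals high in *Ttr*. The median Log2FC of the 9 genes was 0.05, against -0.01 over all genes tested.

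**Figure D2:**
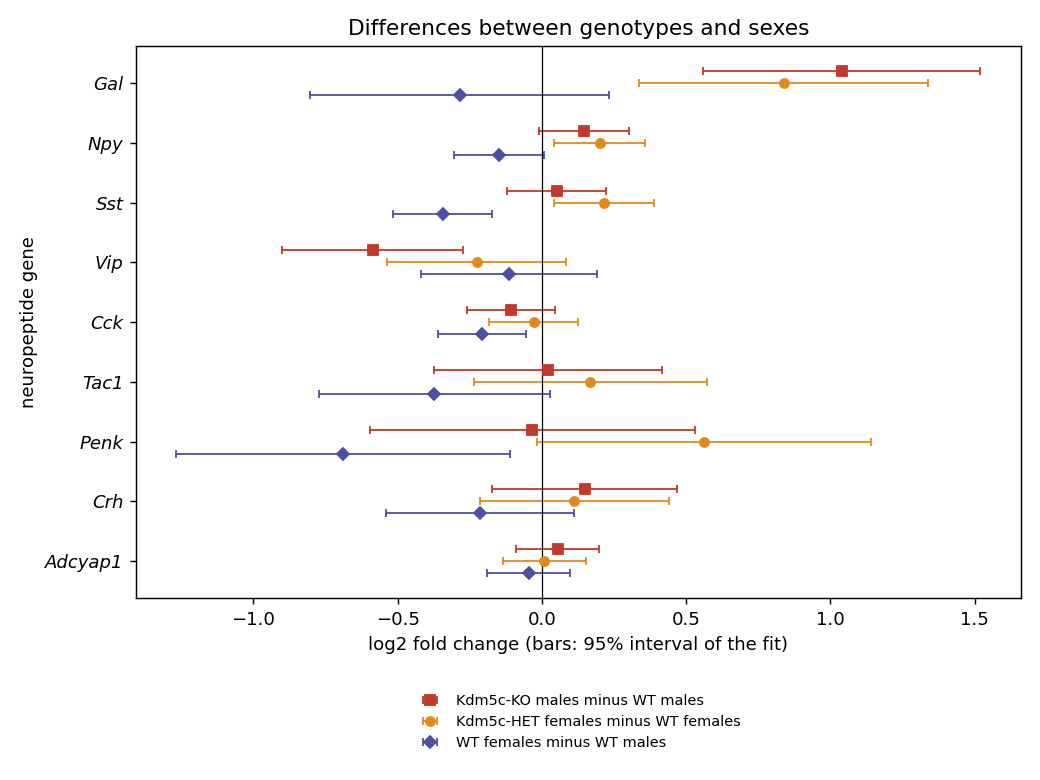
Log2FC (x axis) of each neuropeptide gene (y axis) in *Kdm5c*-KO males against WT males (squares), *Kdm5c*-HET females against WT females (circles), and WT females against WT males (diamonds), with bars for the 95% interval of the edgeR fit over all 16 animals. *Gal* lies to the right in both mutant contrasts (1.04 and 0.84), *Vip* to the left in males (-0.59), and all 9 diamonds lie left of 0.

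In *Kdm5c*-HET females no neuropeptide gene passed the threshold. This was 0 of 9 in the higher direction, where 0.481% of all genes were called, and 0 of 9 in the lower direction, where 0.0280% were. At an unadjusted p under 0.05 there were 3 of the 9, *Gal*, *Npy*, and *Sst*, against 6.49% of all genes tested, and DESeq2 also called none. *Gal* and *Penk* had all 4 *Kdm5c*-HET females above all 4 WT females, which 2.78% of genes did, and none of the 9 had them all below, which 1.69% of genes did. The median Log2FC was 0.17, with 7 genes higher and 2 lower, against a median of -0.000803 over all genes. Without the 6 animals high in *Ttr* none was called either, and several estimates moved. *Sst* then stood at 0.40, *Penk* at 0.97, *Tac1* at 0.55, *Gal* at 0.93, *Npy* at 0.04, *Vip* at -0.05, *Cck* at 0.12, *Adcyap1* at 0.15, and *Crh* at 0.07.

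*Sst* encodes somatostatin, the inhibitory peptide of a large class of interneurons that contact dendrites. *Sst* measured 147, 153, 121, and 121 CPM in WT females and 168, 151, 155, and 155 CPM in *Kdm5c*-HET females. Only WT female 3D reached into the range of the *Kdm5c*-HET animals. The Log2FC was 0.22 (SE 0.0827, 95% interval 0.04 to 0.39, q = 0.587, edgeR).

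Within each letter the females did not overlap in *Sst*. The letters leave few animals on each side, and the share of all genes that separate so was not counted. This order is therefore a description. With the letter D, the WT animals stood at 147 and 153 CPM and the single *Kdm5c*-HET animal at 168 CPM. With the letter E, the WT animals both stood at 121 CPM and the 3 *Kdm5c*-HET animals between 151 and 155 CPM. In the fit with the letter as a covariate *Sst* was the 1 gene of the 9 called, with a Log2FC of 0.28 (SE 0.0401, q = 0.00036, edgeR), where 0.879% of all genes were called. In males the same fit gave *Sst* a Log2FC of 0.11 (SE 0.0396), and the responses of the sexes differed by -0.17 (q = 0.288).

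*Npy* encodes an inhibitory peptide of several interneuron classes. *Npy* measured 27.4, 30.5, 30.3, and 34.3 CPM in WT females and 32.2, 34.6, 38.9, and 34.96 CPM in *Kdm5c*-HET females. The groups overlapped through WT female 5E, and the Log2FC was 0.20 (SE 0.0749, q = 0.562, edgeR). In males *Npy* measured 33.2, 34.5, 35.5, and 32.4 CPM in WT and 37.0, 34.1, 36.6, and 42.2 CPM in *Kdm5c*-KO animals, of which 6D fell within the WT range.

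*Penk* encodes the precursor of the enkephalins, which act on opioid receptors. *Penk* measured 19.9, 18.7, 7.55, and 14.2 CPM in WT females and 22.03, 20.8, 26.8, and 20.004 CPM in *Kdm5c*-HET females. The lowest *Kdm5c*-HET female, 9E, lay just above the highest WT female, 1D. The Log2FC was 0.56 (SE 0.277, 95% interval -0.02 to 1.14, q = 0.787, edgeR), and it ranged from 0.34 to 0.72 when single animals were left out.

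*Tac1* gives rise to substance P, an excitatory peptide of the tachykinin family. *Tac1* ranged from 6.63 to 12.9 CPM in WT females and from 9.84 to 11.3 CPM in *Kdm5c*-HET females, with a Log2FC of 0.17 (SE 0.193). *Crh*, the stress peptide that is also made by cortical interneurons, ranged from 2.58 to 4.21 CPM and from 3.09 to 4.45 CPM in the same groups, with a Log2FC of 0.11 (SE 0.157). *Cck*, whose peptide acts on anxiety and satiety circuits, had a Log2FC of -0.03 (SE 0.0734), and *Adcyap1*, whose peptide PACAP raises cAMP in its target cells, one of 0.01 (SE 0.0688). The 95% interval of *Adcyap1* ran from -0.14 to 0.15, the narrowest of the 9.

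No neuropeptide gene had a response that differed between the sexes at q under 0.1 by edgeR, where 0.0392% of all genes did, nor did any by DESeq2. None of the 9 had an unadjusted p under 0.05 in the edgeR fit, where 6.37% of all genes tested did. With the letter as a covariate the responses differed by -0.17 in *Sst* (unadjusted p = 0.00546, q = 0.288) and by -0.39 in *Vip* (unadjusted p = 0.0391, q = 0.468) by edgeR. Neither passed the threshold of q = 0.1. The share of all genes with an unadjusted p under 0.05 in that fit was not counted. *Penk* had the largest estimate (-0.59, 95% interval -1.40 to 0.21, q = 0.837). The interval of *Tac1* ran from -0.71 to 0.42 and that of *Crh* from -0.42 to 0.49, and differences within these intervals are not excluded. Without the 6 animals high in *Ttr* none was called, and the estimates of *Penk* and *Tac1* were -1.33 and -0.79.

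WT females were also compared with WT males, using the WT animals that served as controls above. All 9 estimates were below 0, with a median of -0.21 against 0.00 over all genes tested. *Sst* was the 1 gene of the 9 called lower in females, where 2.41% of all genes were, and 0 of 9 were called higher, where 2.59% were. *Sst* measured 171, 179, 187, and 149 CPM in WT males, against the 121 to 153 CPM of WT females given above. The 2 sexes overlapped only through WT male 1E, and the Log2FC was -0.34 (SE 0.0826, 95% interval -0.52 to -0.17, q = 0.0393, edgeR). The call was lost without WT male 5D or 7D or WT female 4E or 5E, with q up to 0.158 and a Log2FC between -0.41 and -0.29 in the fits that left out an animal.

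The sexes separated fully in *Sst* within each letter, again between few animals. The share of all genes that do so was not counted, so the order is a description. With the letter D, WT males ranged from 171 to 187 CPM and WT females from 147 to 153 CPM. With the letter E, the single WT male stood at 149 CPM and both WT females at 121 CPM. The Log2FC with the letter as a covariate was -0.29 (q = 0.000424, edgeR), and that of *Cck* was -0.16 (q = 0.0259). These 2 genes were the members called in that fit, where 9.40% of all genes were. Without the 6 animals high in *Ttr*, which takes away 4 of the 8 WT animals, the Log2FC of *Sst* was -0.48 with a q of 0.272. In that fit *Tac1* was the 1 gene called (Log2FC -1.03, q = 0.0908), and *Penk* stood at -1.497 (q = 0.241).

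Of the other 8 estimates between WT females and WT males, those of *Penk* and *Tac1* were larger than that of *Sst* but had wider errors. *Penk* had a Log2FC of -0.69 (SE 0.277, q = 0.189), *Tac1* of -0.37 (SE 0.191, q = 0.313), *Gal* of -0.28 (SE 0.248, q = 0.584), *Crh* of -0.21 (SE 0.156, q = 0.497), and *Cck* of -0.21 (SE 0.0732, q = 0.139). *Npy* stood at -0.15, *Vip* at -0.11, and *Adcyap1* at -0.05. Because the WT females also serve as controls of the *Kdm5c*-HET females, low values in them enter both comparisons.

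The letter of the label moved with part of the family. In the fit with the letter as a covariate, 4 of the 9 genes were called lower in the 8 animals with the letter E than in the 8 with the letter D, where 12.0% of all genes were called lower. None of the 9 was called higher, where 11.6% were. *Sst* was lower by a Log2FC of -0.24 (SE 0.0296, q = 7.32e-06), *Cck* of -0.20 (SE 0.0300, q = 5.39e-05), *Vip* of -0.28 (SE 0.0952, q = 0.0483), and *Adcyap1* of -0.14 (SE 0.0428, q = 0.028). This comparison by edgeR was added after the data had been seen, and what the letter stands for was not tested.

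*Cck* shows the pattern in single animals. The share of all genes with the order by letter given here for *Cck*, and below for *Adcyap1*, was not counted. The order is therefore a description. *Cck* measured 146, 150, and 143 CPM in the WT males 2D, 5D, and 7D and 123 CPM in 1E. *Kdm5c*-KO males measured 140 and 144 CPM with D and 116 and 123 CPM with E. In each of the 4 groups every animal with the letter E was below every animal with the letter D, also among WT females (128 and 133 against 118 and 109 CPM) and *Kdm5c*-HET females (124 against 123, 114, and 117 CPM).

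*Adcyap1* had the same order in each group, with 24.3 to 26.8 CPM against 23.3 CPM in WT males and 26.8 to 28.4 against 24.6 to 24.8 CPM in *Kdm5c*-KO males. In females the values were 24.8 to 26.0 against 22.9 to 23.8 CPM in WT and 26.1 against 22.7 to 25.8 CPM in *Kdm5c*-HET animals. *Vip* did not keep this order in every group. WT male 1E (7.34 CPM) was above 7D (7.31 CPM), and *Kdm5c*-HET female 9D (5.94 CPM) was below 6E and 8E (6.19 and 6.42 CPM). *Npy* was the 1 gene of the 9 with a higher estimate in animals with the letter E (0.11, SE 0.0503, q = 0.15).

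**Figure D3:**
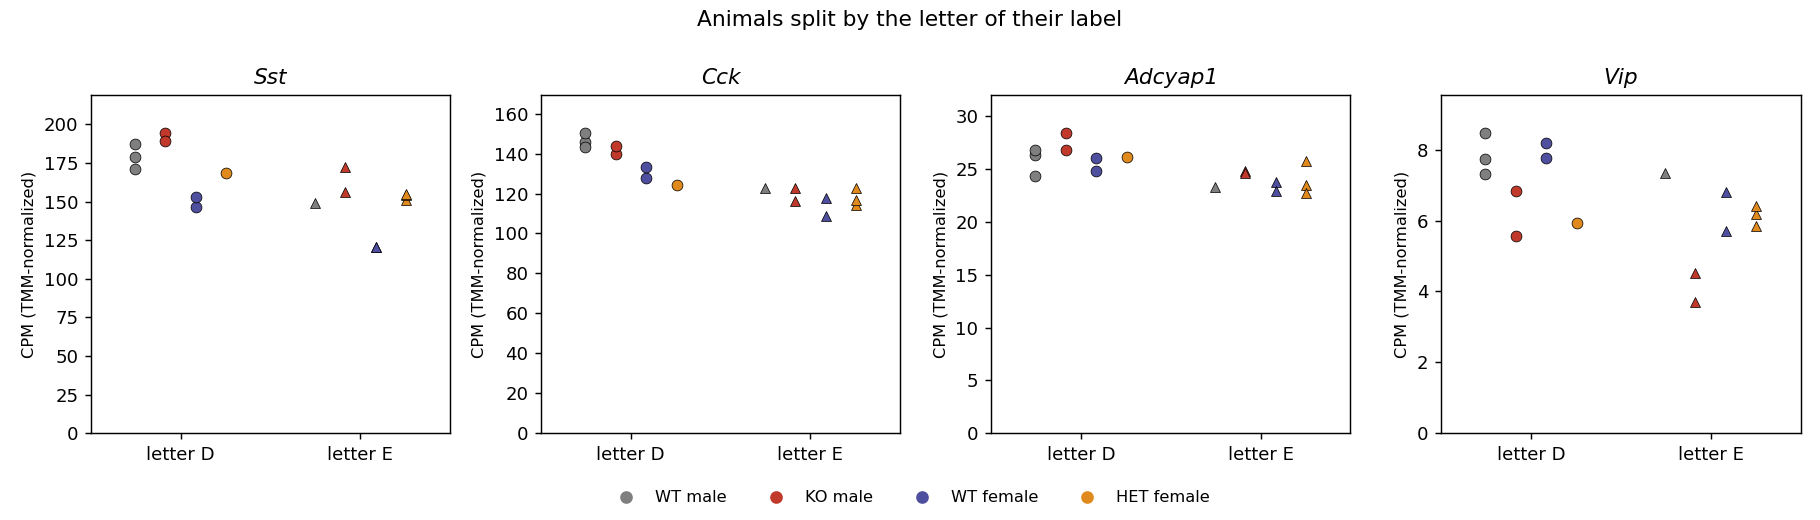
Expression in CPM (y axis, from 0) of the 4 neuropeptide genes called lower in animals with the letter E, with 1 point per animal, coloured by group and split by label letter on the x axis (8 animals each). *Sst* of WT females lies at 147 to 153 CPM with D and at 121 CPM with E, below the other groups within each letter.

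The genes differed in how much they varied between animals of a group. The within-group SD of log2 CPM was 0.516 for *Penk*, larger than that of 90.1% of all genes tested. It was 0.326 for *Tac1*, 0.323 for *Gal*, 0.228 for *Vip*, and 0.209 for *Crh*. *Sst* (0.140), *Cck* (0.122), *Npy* (0.112), and *Adcyap1* (0.0930) lay below the median gene (0.143).

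*Tac1* and *Penk* varied together. *Penk* measured 24.1, 13.1, 36.6, and 24.6 CPM in WT males (2D, 5D, 7D, and 1E), and *Tac1* 11.8, 7.96, 16.4, and 13.015 CPM. WT male 5D was the lowest and 7D the highest of the group in both genes. *Penk* measured 26.0, 29.2, 13.6, and 26.9 CPM in *Kdm5c*-KO males, and *Tac1* 13.3, 11.03, 10.51, and 14.6 CPM, with 2E the lowest in both. *Tac1* in WT females measured 12.9, 10.2, 6.63, and 7.80 CPM, in the same order of animals as *Penk*, with 4E the lowest in both.

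With the group means taken away, the correlation of *Tac1* and *Penk* over the 16 animals was r = 0.862 (permutation p = 0.00136, adjusted p = 0.0122 over 36 pairs of the 9 genes). Spearman's rho was 0.824 (permutation p = 0.00165, adjusted p = 0.0205). Without the 2 animals farthest from the median of *Tac1*, 5D and 4E, r was 0.738. It was 0.875 within the 8 animals with the letter D and 0.852 within the 8 with the letter E. These permutations, 100000 within groups, were made after the data had been seen. Striatal markers had no identifier, so that the part of adjoining tissue in this pattern was not tested.

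**Figure D4:**
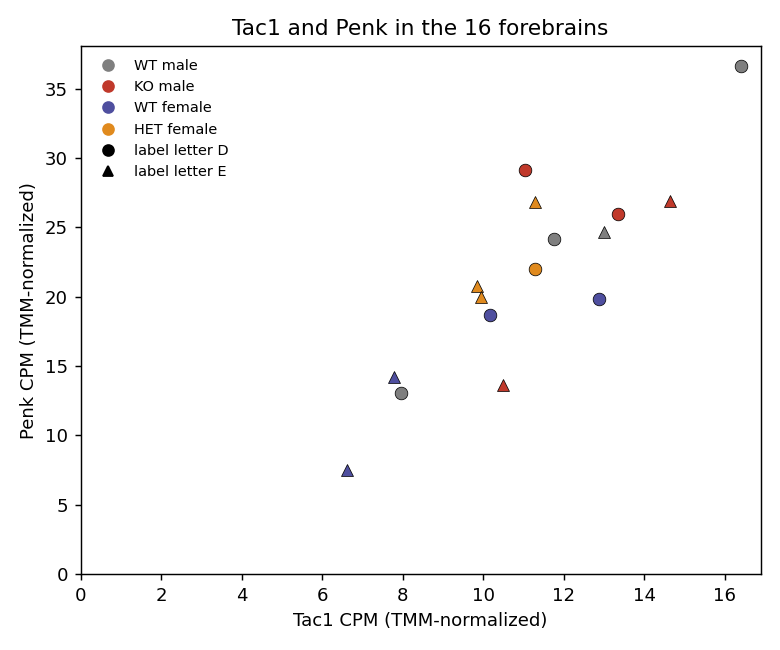
*Penk* (y axis, CPM) against *Tac1* (x axis, CPM), 1 point per animal for all 16 forebrains, coloured by group, with circles for the label letter D and triangles for E. The points run from WT female 4E (6.63 and 7.55 CPM) to WT male 7D (16.4 and 36.6 CPM), and animals of all groups lie along the same band.

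The other pairs with an adjusted p under 0.1 for r were *Sst* with *Cck*, *Sst* with *Adcyap1*, *Cck* with *Adcyap1*, and *Vip* with *Adcyap1*, 5 of the 36 pairs in all. These are the 4 genes that were lower with the letter E. *Sst* and *Cck* had r = 0.888 (permutation p = 0.001, adjusted p = 0.0122) and rho = 0.838 (permutation p = 0.00343, adjusted p = 0.0309), and r = 0.844 without the 2 animals farthest from the median of *Sst*. Within the letter D their r was 0.312 and within E 0.718, so that the relation was weaker within the letters than over all animals. For *Sst* with *Adcyap1* r was 0.763 within D and 0.209 within E. It was 0.179 and 0.725 for *Cck* with *Adcyap1*, and 0.274 and 0.410 for *Vip* with *Adcyap1*. The rho of *Vip* with *Adcyap1* had an adjusted permutation p of 0.104. Animals were permuted within groups but not within letters, so the shift with the letter enters these p-values.

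Of 27 receptors of these peptides, 6 carried an identifier in the sources used. Those 6 are on the list of genes that the study selected on these same animals, so their counts are no independent evidence of a direction. In *Kdm5c*-KO males *Npy1r* and *Sstr5* were called higher and *Npy2r*, *Sstr2*, *Vipr1*, and *Crhr1* lower, where 3.55% and 1.69% of all genes were. None of the 6 was called in *Kdm5c*-HET females, where 0.481% of all genes were called higher and 0.0280% lower. The receptors of galanin were not analysed here.

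*Sstr5*, a somatostatin receptor, was near the floor of detection, with counts of 16, 13, 10, and 7 in WT males against 28, 23, 23, and 48 in *Kdm5c*-KO males, and a Log2FC of 1.35 (SE 0.380). *Npy1r*, a neuropeptide Y receptor found mainly after the synapse, measured 27.1 to 29.6 CPM in WT males and 32.3 to 34.8 CPM in *Kdm5c*-KO males, a Log2FC of 0.22 (SE 0.0551). In females *Npy1r* did not overlap, where 2.78% of all genes had every *Kdm5c*-HET animal higher. *Npy1r* measured 24.2 to 27.7 CPM in WT and 28.2 to 31.3 CPM in *Kdm5c*-HET females (Log2FC 0.19, SE 0.0555, q = 0.297, edgeR).

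*Npy2r*, the neuropeptide Y receptor that often sits on the releasing terminal, had a Log2FC of -0.31 (SE 0.0890) in males, and *Sstr2*, a somatostatin receptor, of -0.33 (SE 0.0773). *Vipr1*, a receptor for VIP and PACAP, measured 6.43, 6.55, 6.19, and 5.58 CPM in WT males and 3.64, 4.58, 4.81, and 4.62 CPM in *Kdm5c*-KO males. It did not overlap between these groups, where 3.87% of all genes had every *Kdm5c*-KO male lower, and its Log2FC was -0.49 (SE 0.143). *Crhr1*, the main receptor for corticotropin-releasing hormone, had a Log2FC of -0.21 (SE 0.0629), and its groups overlapped. With single animals left out every fold kept its direction while several calls were lost. That of *Npy1r* was lost without 2D or 2E, that of *Sstr5* without 5D, 7D, 1E, or 3E, and those of *Npy2r* and *Vipr1* without 2D, 5D, 7D, 4D, 2E, or 3E. *Crhr1* lost its call in 8 of 16 such fits (without 2D, 5D, 1E, 6D, 2E, 3E, 3D, or 8E) and *Sstr2* in none. The Log2FC in these fits ran from 0.20 to 0.24 for *Npy1r*, 1.11 to 1.51 for *Sstr5*, -0.36 to -0.28 for *Npy2r*, -0.53 to -0.41 for *Vipr1*, and -0.24 to -0.14 for *Crhr1*. The calls of *Npy2r* and *Crhr1* were also lost in a fit of males alone and with no filter on low counts. Without the 6 animals high in *Ttr* none of the 6 receptors was called, with Log2FC of 0.20 for *Npy1r*, 1.595 for *Sstr5*, -0.32 for *Npy2r*, -0.39 for *Sstr2*, -0.41 for *Vipr1*, and -0.13 for *Crhr1*.

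Of 17 genes of peptide processing and dense core vesicles, 4 carried an identifier, again from the study's list of changed genes. *Chga*, a granin of the vesicle core (-0.24, SE 0.0658), *Scg5*, the chaperone of prohormone convertase PC2 (-0.20, SE 0.0580), and *Cadps2*, a priming factor of vesicle release (-0.28, SE 0.0879), were called lower in *Kdm5c*-KO males, where 1.69% of all genes were. *Chgb*, another granin, was at -0.24 (SE 0.0788) and was not called. The call of *Chga* was lost without 2D, 7D, 2E, or 3E, that of *Scg5* without 2D, 5D, 7D, 2E, or 3E, and that of *Cadps2* in 10 of the 16 fits that left out an animal (2D, 5D, 7D, 2E, 3E, 1D, 3D, 4E, 6E, or 9E). The Log2FC in these fits ran from -0.29 to -0.20 for *Chga*, -0.23 to -0.16 for *Scg5*, and -0.35 to -0.23 for *Cadps2*. In a fit of males alone the calls of *Scg5* and *Cadps2* were lost, and that of *Cadps2* also with DESeq2's size factors and with at least 10 counts in every animal. *Chgb* was in turn called with DESeq2, with no filter on low counts, with the letter as a covariate, and without 1E, 4D, 6D, or 5E. Without the 6 animals high in *Ttr* none was called, with Log2FC of -0.23, -0.19, and -0.17. All 4 were also lower in animals with the letter E, with Log2FC from -0.15 to -0.24. None was called in *Kdm5c*-HET females, against the same shares of all genes as above. *Ece1*, the 1 of 9 peptide-degrading enzymes with an identifier, was not called in either contrast, although it was in males with DESeq2, with at least 10 counts in every animal, and without 1E.

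Of 43 other neuropeptide precursors, 2 carried an identifier, also from the study's own list. *Nts*, the precursor of neurotensin, measured 17.1, 23.4, 25.3, and 23.0 CPM in WT males and 31.3, 27.6, 32.5, and 38.8 CPM in *Kdm5c*-KO males, a Log2FC of 0.55 (SE 0.125). *Trh*, thyrotropin-releasing hormone, measured 5.57, 4.96, 6.41, and 4.57 CPM and 7.16, 9.60, 8.04, and 8.47 CPM in the same groups, a Log2FC of 0.63 (SE 0.151). Neither overlapped in males, and 5.04% of all genes had every *Kdm5c*-KO male higher. Neither was called without the 6 animals high in *Ttr*, with Log2FC of 0.43 for *Nts* and 0.60 for *Trh*. In females *Nts* had a Log2FC of 0.17 (q = 0.938) and *Trh* of 0.44 (q = 0.493) by edgeR, and both overlapped.

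Markers of other cells could be followed only in part. *Trh* was the 1 of 15 hypothalamic markers with an identifier. Of 8 thalamic markers there were 2, which moved in opposite directions in *Kdm5c*-KO males (*Prkcd* 0.53, SE 0.104, and *Ramp3* -0.50, SE 0.0980). Of 25 interneuron markers *Htr3a*, the serotonin receptor gene of the class that includes VIP cells, was the 1 with an identifier. *Htr3a* ranged from 2.82 to 3.89 CPM in WT males and from 4.82 to 5.86 CPM in *Kdm5c*-KO males, while *Vip* was lower there. The part of a changed makeup of cells in these values was not tested.

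The 5 genes of 17865 whose log2 CPM was most like that of *Gal* over the 16 animals were *Dkkl1* (Pearson's r 0.926), *Zar1* (0.898), *Hapln3* (0.895), *Gjb1* (0.893), and *Arhgef25* (0.892). The next gene had almost the same value, so that the list has no natural end. The 16 animals include the groups that differ in *Gal*, and the likeness is a description. *Gjb1*, a gap junction gene, averaged 1.43 and 16.04 CPM in WT and *Kdm5c*-KO males and 1.103 and 6.54 CPM in WT and *Kdm5c*-HET females. *Dkkl1*, a gene known from the testis, averaged 12.6, 20.1, 12.4, and 15.4 CPM in the same order. In both, as in *Gal*, the *Kdm5c*-HET mean lay between those of the WT females and the *Kdm5c*-KO males. As both genes were chosen by their likeness to *Gal*, this order is no separate observation.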

How the data were processed

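Per the labels and the study's methods, poly(A)-enriched, directional mRNA-seq libraries of 16 forebrains were mapped to mm10 with STAR 2.5.3a, and uniquely mapped reads were counted per gene with featureCounts (Subread 1.5.0). Whether counting used strand is not given in the sources used here, and *Cck*, *Crh*, and *Adcyap1* each overlap 1 other RefSeq gene (Gm38661, Gm42189, and Gm32465). The authors deposited raw counts for 54219 Ensembl genes, 35337 with a count. The 9 genes and all lists were chosen with earlier results of these data known.

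In R 4.3.3, edgeR 4.0.16 was fitted to the counts (filterByExpr, 17866 genes, TMM, glmQLFit, 1 mean per group, no covariate). Contrasts were tested with glmQLFTest and adjusted by the Benjamini-Hochberg method over all genes (q, threshold 0.1). Depth was 21513783 to 30063352 counts per library. In tests on simulated data edgeR recovered 96% (males) and 90% (females) of genes given a log2 change of 1, and 75% and 66% of those given 0.5, with 8.06% and 8.24% false calls.

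Alternatives were DESeq2 1.42.0, its size factors in edgeR, no filter, at least 10 counts in every animal, animals of 1 sex only, the label letter as covariate, a threshold of 0.05, each animal left out, and, added after the data had been seen, the animals above 50 CPM of *Ttr* left out. Intervals are 95%. For correlations, log2 CPM was taken with 2 as prior count (SciPy 1.17.1).

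Named genes were all 9 members, genes of the receptor, processing, breakdown, and other precursor lists with q under 0.1 in a mutant contrast, and the 5 genes most like *Gal*. *Chgb*, *Ece1*, and the cell type markers were named after their values were seen. The count table pairs no symbols with its identifiers, so beyond the 9 genes only symbols on the study's list of changed genes (1021) could be used, and counts over the full receptor, processing, breakdown, and precursor lists were not made. The list's fold changes and p-values were not used. Signal tracks were not used here. The sequences of the genes were not used here.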

Additional observations from a re-analysis of the deposited data

How the results depend on the processing

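The count of neuropeptide genes called in *Kdm5c*-KO males (2, *Gal* and *Vip*) was 1 in the fit of 1 sex, 1 without the 6 animals above 50 CPM of *Ttr*, and 1 to 2 when single animals were left out. In *Kdm5c*-HET females the count of 0 became 2 with no filter on low counts (*Sst* and *Penk*) and 1 with the letter as covariate (*Sst*). In WT females against WT males the count of 1 (*Sst*) became 2 with DESeq2, 4 with no filter, 2 with the letter as covariate, and 0 to 2 when single animals were left out (0 without WT males 5D or 7D or WT females 4E or 5E). Without the animals high in *Ttr* it stayed 1, but the gene was *Tac1*. The count of 0 differences between the sexes' responses was the same in every alternative run. The cause of these changes was not tested.

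For single genes, 1030 of 1157 alternatives kept direction and side of the threshold, 80 lost a call, 21 gained one, and 26 turned the sign, all of these for genes not called. With the letter as covariate *Penk* in males was 0.039 and *Cck* in females 0.026. Without the animals high in *Ttr* the Log2FC was -0.25 for *Tac1* in males, 0.12 for *Cck* in females, 0.10 for *Npy* and -0.086 for *Adcyap1* in the difference of responses, and 0.14 for *Gal* and 0.10 for *Crh* between the WT sexes. With single animals left out, in males *Sst* ran from -0.0092 to 0.11, *Tac1* from -0.14 to 0.19, and *Penk* from -0.25 to 0.22. In females *Cck* ran from -0.082 to 0.014, *Crh* from -0.0098 to 0.22, and *Adcyap1* from -0.026 to 0.042. In the difference of responses *Npy* ran from -0.12 to 0.0026, *Tac1* from -0.34 to 0.026, and *Crh* from -0.074 to 0.16.

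Few counts limit *Gal* (16 to 71 per library) and *Sstr5* (4 to 48). No paired analysis was possible because no label pairs single animals across the groups. The letter, which 8 animals share each, was fitted as a covariate. No group of 4 had an animal far enough from the others to be singled out in any of the 36 groups examined.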
